A study of Mus musculus with 10 samples.

Results

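The 49 mitosis genes are the cyclins, kinases, checkpoint proteins, kinetochore proteins, spindle motors, cytokinesis proteins and chromosome scaffold proteins that build and control the mitotic spindle. They were taken by symbol from a list, out of the 25239 gene symbols of the counts table, and all 49 were in the table. RNA sequencing read counts were available from 10 mouse libraries in 4 groups. MLTC-1, an established mouse Leydig tumour line, had been given DMSO, the solvent (n = 3), or hymeglusin (n = 3), an inhibitor of HMG-CoA synthase, a step shared by the cholesterol and ketone body pathways. Primary Leydig cells, which make testosterone in the tissue between the seminiferous tubules, had been isolated without treatment from 2-month-old (n = 2) and 24-month-old mice (n = 2). The labels give no dose or duration of hymeglusin, no mouse strain and no isolation method. MLTC-1 is 1 line, and all its libraries carry whatever is particular to it. Nothing in the labels says that the replicates of a group came from separate cultures or animals. The p-values therefore rest on the spread among these libraries, which may be technical.

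A dividing cell enters mitosis when cyclin B and its kinase Cdk1 are switched on by Cdc25 phosphatases. Condensin then compacts the chromosomes, kinetochores tie them to spindle microtubules, and the spindle checkpoint holds back the anaphase promoting complex until all are attached. That ubiquitin ligase, with Cdc20, then destroys cyclin B and frees separase, and the midzone proteins split the cell. Transcripts of these genes rise together in G2 through the MuvB and FoxM1 complexes, which bind the CHR element at their promoters, while NF-Y binds CCAAT boxes beside it. Adult Leydig cells rarely divide, and a tumour line in culture divides steadily. Male germ cells use many of the same genes in their mitotic and meiotic divisions.

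Total counts ranged from 17407456 to 34787330 per library. Of 9 Leydig marker genes, 8 had a mean of at least 1 CPM, the counts scaled to library size, in MLTC-1 and 9 in primary cells. The exception, Hsd17b3, the last enzyme of testosterone synthesis, stood at 0 to 0.302 CPM in MLTC-1. The summed levels of the 9 were 9214 to 9436 CPM in the DMSO libraries, 6670 to 6852 with hymeglusin, and 18235 to 26424 in the primary cells. The pairs of primary libraries were less alike than those of MLTC-1: the chi-square per degree of freedom between replicates was 3.44 to 7.67 in MLTC-1, 18.9 at 2 months and 134 at 24 months. Germ cell RNA was present in all 4 primary libraries. The sum of 22 spermatocyte and meiosis markers stood at 737 and 1177 CPM at 2 months and at 1513 and 1266 CPM at 24 months, with 0 of 22 at 0 in either group. In MLTC-1 with DMSO it was 64.1 to 68.6 CPM, with 8 of 22 at 0, among them Sycp2, Syce1, Spo11 and Hormad1. The sum of 15 spermatid markers was 2041 and 2809 CPM at 2 months, 11168 and 6024 CPM at 24 months, and 11.3 to 16.5 CPM in MLTC-1.

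The mitosis genes together were far lower in the primary cells than in the tumour line. Their summed level was 6284, 6382 and 6138 CPM with DMSO (6268 ± 123, SD, n = 3), 9431, 9692 and 9725 CPM with hymeglusin (9616 ± 161, n = 3), 804 and 1129 CPM at 2 months (966 ± 230, n = 2), and 758 and 787 CPM at 24 months (773 ± 20.6, n = 2). The 3 MLTC-1 libraries of each treatment lay close together and the treatments did not overlap, while the 2-month pair differed by more than the means of the age groups did. The median gene stood at 101 CPM with DMSO, 157 CPM with hymeglusin, 13.8 CPM at 2 months and 9.1 CPM at 24 months. In these bulk samples, fewer cells of a type and less RNA per cell cannot be told apart.

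**Figure D1:**
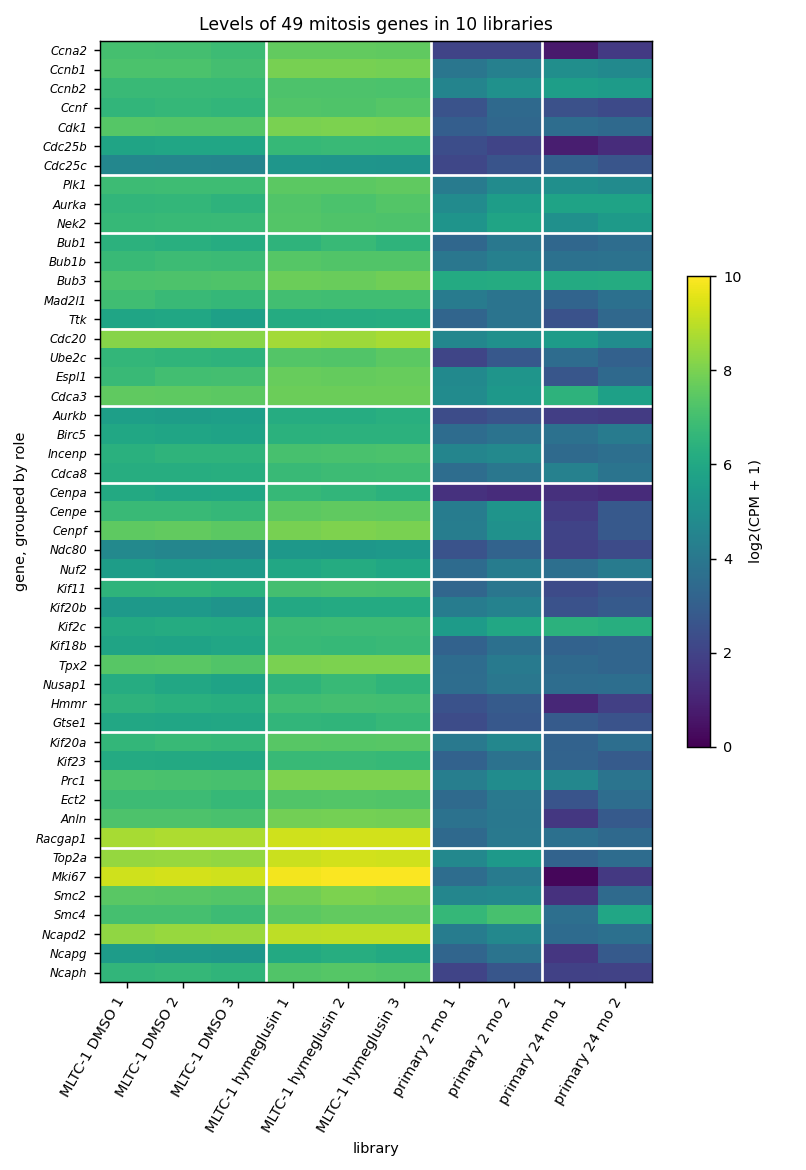
Level of each of the 49 mitosis genes (rows, grouped by role from cyclins at the top to chromosome structure at the bottom, with white lines between the roles) in each of the 10 libraries (columns), as the colour of log2(CPM + 1). The 6 MLTC-1 libraries are brighter than the 4 primary libraries for most genes, and Kif2c and Bub3 are among the rows that stay bright in primary cells. Smc4 does so except in 24-month replicate 1.

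Which gene was most abundant differed between the line and the primary cells. On a scale of CPM per kilobase of the longest annotated transcript, the highest genes with DMSO were Cdc20, the activator of the anaphase promoting complex, at 163, Racgap1, part of the centralspindlin complex of the midzone, at 95.6, and Cdca3, an adaptor that triggers mitotic entry, at 92.5. The lowest were Cdc25c (8.75), Kif20b (6.96) and Ndc80 (6.22). With hymeglusin the highest were Cdc20 (217), Racgap1 (141) and Top2a (118), and the lowest were Cdc25c (13.8), Kif20b (12.0) and Ndc80 (10.2). At 2 months the highest were Smc4, a condensin ATPase (27.1), the centrosome kinase Aurka (19.3) and the microtubule depolymerase Kif2c (18.8), and the lowest were Cdc25b (1.18), Ccna2 (1.07) and Cenpa (0.405). At 24 months the highest were Cdca3 (34.99), Ccnb2 (29.6) and Aurka (28.6), and the lowest were Cenpa (0.388), Cdc25b (0.356) and Mki67 (0.116). Mki67, the Ki-67 antigen used to mark dividing cells, was thus last at 24 months, where 2 and 53 reads were counted.

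Hymeglusin was compared with DMSO to ask what blocking HMG-CoA synthase does to the transcripts of the tumour line. Of the 49 mitosis genes, 48 rose and 0 fell at an adjusted p under 0.05, against 23.8% of all 12873 genes tested higher, 24.5% lower and 48.3% either way (edgeR quasi-likelihood test, Benjamini-Hochberg adjustment over all genes). The differences were moderate in size: the median log2 fold change was 0.56, or 1.47-fold, against 0.01 over all genes, and the range was 0.09 to 0.87. In 48 genes every hymeglusin library lay above every DMSO library, as it did in 35.6% of all genes, and in 0 every one lay below, against 19.6% of all genes. Prc1, which bundles the antiparallel microtubules of the midzone, rose the most, and Mad2l1, the checkpoint protein that binds Cdc20, was the 1 gene that did not pass. When all 10 libraries were fitted together, so that the spread of the primary libraries entered the estimate, 27 of the 48 passed.

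The cyclins, Cdk1 and the Cdc25 phosphatases rose in 7 of 7 cases. Cdk1 itself stood at 164, 161 and 161 CPM with DMSO and at 253, 258 and 253 CPM with hymeglusin, a log2 difference of 0.58 (SE 0.047, adjusted p = 1.46e-12). Cdc25b, the phosphatase that starts Cdk1 activation, had the largest rise of this group, from 56.2, 60.2 and 58.8 to 102, 107 and 107 CPM (log2 0.78, SE 0.054, adjusted p = 2.47e-14). Ccnb1, the main mitotic cyclin, rose 1.69-fold, whereas its relative Ccnb2 rose only from 109, 109 and 105 to 145, 147 and 144 CPM (log2 0.36, SE 0.049, adjusted p = 1.78e-07). Both B cyclins were higher in all 3 hymeglusin libraries than in any DMSO library.

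All 3 entry and centrosome kinases rose. Aurka, which matures the centrosome, went from 93.7, 97.1 and 87.0 to 154, 144 and 159 CPM (log2 0.65, SE 0.052, adjusted p = 1.28e-12), Plk1 rose 1.47-fold, and Nek2, which frees the paired centrosomes, rose by 0.45 (SE 0.051, adjusted p = 3.30e-09). Of the 4 genes of the chromosomal passenger complex, which corrects wrong attachments, 4 rose, from Incenp, the scaffold (log2 0.61, SE 0.053, adjusted p = 7.59e-12), to Birc5, survivin (log2 0.48, SE 0.057, adjusted p = 9.35e-09).

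The spindle checkpoint was the role with the smallest rise, with a median log2 fold change of 0.27 and 4 of 5 genes past the threshold. Bub3, which brings checkpoint kinases to kinetochores, rose from 143, 146 and 149 to 217, 210.5 and 228 CPM (log2 0.51, SE 0.048, adjusted p = 5.34e-11). Mad2l1 stood at 122, 109 and 99.1 CPM with DMSO and at 125, 122 and 122 CPM with hymeglusin (log2 0.09, SE 0.058, adjusted p = 0.207). Over the alternatives its adjusted p ran from 0.00504 to 0.786. DMSO replicate 1 lay within the range of the hymeglusin libraries, and without that library the gene passed, at an adjusted p of 0.00798. Bub1, the kinase that recruits the other checkpoint proteins, rose by 0.21 (SE 0.065, adjusted p = 0.00748), which did not pass without hymeglusin replicate 2. Whether the checkpoint genes differ from the other roles was not tested.

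Of the proteolysis genes, 4 of 4 rose, unequally. The E2 enzyme of the anaphase promoting complex, Ube2c, went from 97.6, 91.2 and 86.3 to 160.3, 155 and 175 CPM (log2 0.76, SE 0.054, adjusted p = 4.28e-14). Espl1, separase, rose 1.59-fold. Cdc20 rose from 288, 288 and 300.2 to 389.6, 365 and 414 CPM, 1.27-fold. Cdca3 had the smallest rise that passed, from 185, 185 and 178 to 214, 216 and 218 CPM (log2 0.17, SE 0.047, adjusted p = 0.00284).

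Kinetochore and centromere genes rose in 5 of 5 cases, from Cenpf (log2 0.39, SE 0.049, adjusted p = 3.03e-08) to the kinetochore motor Cenpe, which went from 109, 108 and 101 to 178, 187 and 183 CPM (log2 0.71, SE 0.050, adjusted p = 3.27e-14). All 8 spindle motors and microtubule binding proteins rose. Kif18b, a motor that shortens astral microtubules, stood at 56.4, 54.0 and 59.4 CPM with DMSO and at 105, 103 and 108 CPM with hymeglusin (log2 0.83, SE 0.056, adjusted p = 1.25e-14), and Kif11, the motor that pushes the poles apart, had the smallest rise (log2 0.50, SE 0.053, adjusted p = 8.12e-10). The groups did not overlap for any gene of these roles.

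The midzone and cytokinesis genes rose in 6 of 6 cases. Prc1 stood at 142, 140.1 and 136 CPM with DMSO and at 267, 271 and 266 CPM with hymeglusin, a 1.83-fold difference (log2 0.87, SE 0.048, adjusted p = 5.12e-17). Ect2, the exchange factor that activates RhoA at the cleavage furrow, rose least (log2 0.43, SE 0.052, adjusted p = 1.92e-08). Of the chromosome structure genes 7 of 7 rose, led by the decatenating enzyme Top2a, from 342, 353 and 331 to 589, 636 and 621 CPM (log2 0.78, SE 0.046, adjusted p = 4.48e-16). Mki67 rose 1.45-fold to 912, 983 and 984 CPM, and Smc2, the partner of Smc4 in condensin, rose by 0.47 (SE 0.051, adjusted p = 1.56e-09).

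**Figure D2:**
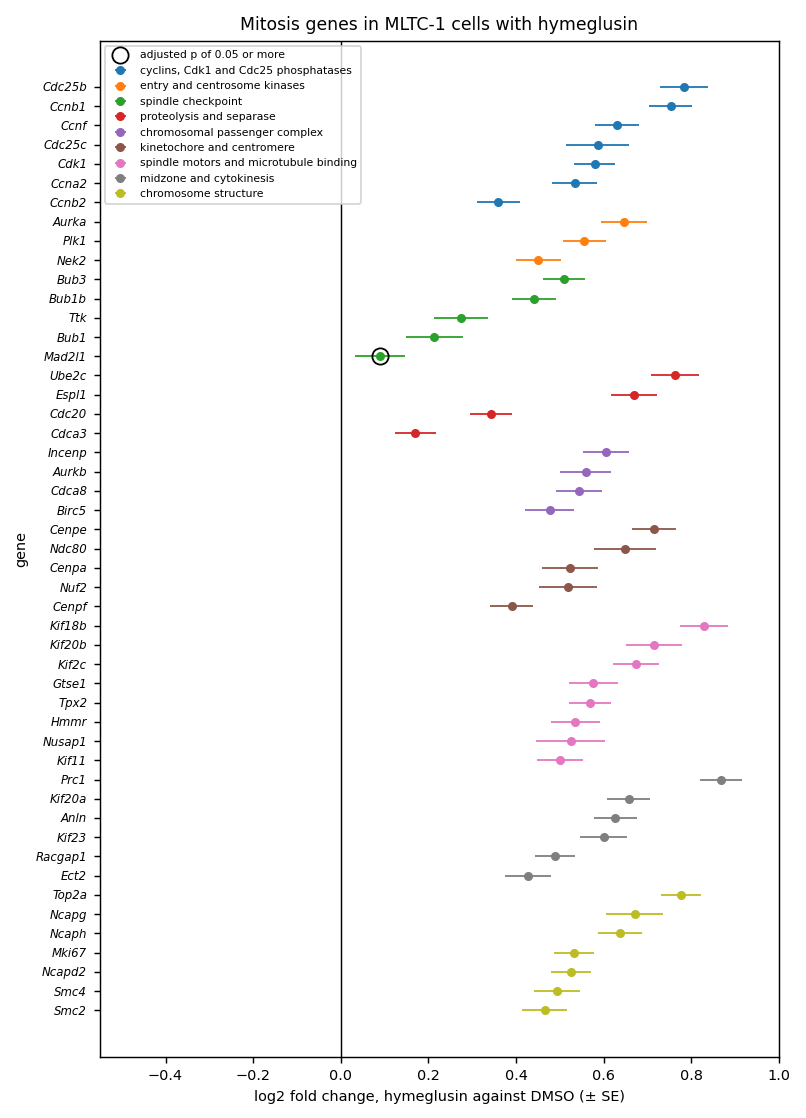
Log2 fold change of each mitosis gene in MLTC-1 cells, hymeglusin against DMSO (n = 3 each), with its standard error as a bar and its role as a colour. All 49 points lie to the right of 0, between 0.09 for Mad2l1 (ringed, adjusted p = 0.207) and 0.87 for Prc1.

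Other genes of the division cycle rose in differing shares, against 23.8% of all genes tested higher, 24.5% lower and 48.3% either way. Of 27 other kinetochore subunits, 26 rose and 0 fell (median log2 0.51), led by Spc24, of the Ndc80 complex (1.03, SE 0.071), and Kntc1 (0.68, SE 0.051). Of 30 DNA replication and S phase genes, 19 rose and 2 fell (median 0.36). Mcm10 and Cdc45, which activate the replicative helicase, rose by 1.01 (SE 0.059) and 0.70 (SE 0.053), while the helicase subunit Mcm6 fell by 0.11 (SE 0.046, adjusted p = 0.0386) and the nucleotide reductase subunit Rrm2 by 0.12 (SE 0.050, adjusted p = 0.0464). All 5 genes of a mixed list of Cdk1 inhibitors and anaphase promoting complex regulators rose as well. Among them were Pkmyt1, a kinase that inhibits Cdk1 (1.10, SE 0.064), and Fbxo5, an inhibitor of the anaphase promoting complex (0.50, SE 0.062). Of 15 genes for the transcription of mitotic genes, 7 rose and 1 fell (median log2 0.12), a share called either way near that of all genes. The mitotic transcription factor Foxm1 rose by 0.52 (SE 0.050) and the MuvB subunit Lin54 by 0.62 (SE 0.070), and E2f5 fell by 0.32 (SE 0.110, adjusted p = 0.0171).

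Several other lists of division genes moved in both directions, as all genes did (23.8% higher and 24.5% lower). Of 15 anaphase promoting complex subunits, 7 rose, such as Anapc11 (0.39) and Anapc7 (0.31), and 2 fell, Cdc26 (-0.30) and Cdc16 (-0.17). Of 14 cohesin genes, 7 rose, such as the cohesion factor Cdca5 (0.91) and the cohesin protector Sgo2a (0.61), and 2 fell, Stag1 (-0.37) and Wapl (-0.30). Of 7 genes of the Greatwall pathway, which keeps the PP2A-B55 phosphatase off during mitosis, the kinase Mastl rose by 0.80 (SE 0.056) and the phosphatase scaffold Ppp2r1a fell by 0.12 (SE 0.049, adjusted p = 0.0299). Of 3 condensin II subunits, 2 rose, Ncapg2 (0.49) and Ncapd3 (0.41). Of 22 meiosis markers 5 had enough counts to be tested in MLTC-1, and 3 were higher with hymeglusin, Rec8 (1.11) and Hspa2 (0.27) among them. The sum of 7 endothelial markers was 74.7 to 80.4 CPM with DMSO and 99.5 to 107 CPM with hymeglusin. Only 1 of the 7 had a mean of at least 1 CPM with DMSO and 2 with hymeglusin, and Kdr, Emcn and Tie1 had 0 counts with DMSO. The sum of 8 Sertoli markers was 70.8 to 79.7 and 67.4 to 78.6 CPM, with 2 of 8 at 1 CPM or more in each group. Sums that rest on so few genes do not show that such cells were present. The part of these markers in the hymeglusin result was not tested.

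Promoter sequences are shown because the 48 genes rose together. Promoter windows from RefSeq (GRCm38.p6), 250 bases before to 50 after a transcription start, were found for 42 of the 49 genes, 46 windows in all; Aurkb, Ccna2, Cdc25c, Incenp, Kif20a, Smc4 and Tpx2 had none. Each was searched for TTTGAA, the core of the CHR element, and for CCAAT. The other strand was searched as well, where the CHR core reads TTCAAA. There the CCAAT box reads ATTGG. Neither motif holds the other, though 2 matches may share an end base. TTTGAA was found in 73.9% of mitosis gene windows and in 17.9% of all 32851 windows of this length, and CCAAT in 80.4% and 37.4%. Both were found in 65.2% of mitosis gene windows and in 6.95% of all. Among replication gene windows TTTGAA was found in 10.3% and among other kinetochore gene windows in 40.0%. The 120 bases before the start are printed 5′ to 3′ on the gene's strand, with the matches in capitals. The genes were picked from across the range of the hymeglusin response, with Cdk1 (log2 0.58) near its median.

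Prc1, chr7:80294356-80294475, + strand: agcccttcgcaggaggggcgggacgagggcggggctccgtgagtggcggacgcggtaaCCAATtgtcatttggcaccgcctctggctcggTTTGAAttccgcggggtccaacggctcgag
Top2a, chr11:99024190-99024309, - strand: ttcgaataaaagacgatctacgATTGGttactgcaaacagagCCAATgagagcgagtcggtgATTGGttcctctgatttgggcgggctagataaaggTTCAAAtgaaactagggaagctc
Ube2c, chr2:164769809-164769928, + strand: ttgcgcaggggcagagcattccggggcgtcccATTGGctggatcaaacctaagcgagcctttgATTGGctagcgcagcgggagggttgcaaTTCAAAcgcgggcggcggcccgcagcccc
Cdk1, chr10:69352913-69353032, - strand: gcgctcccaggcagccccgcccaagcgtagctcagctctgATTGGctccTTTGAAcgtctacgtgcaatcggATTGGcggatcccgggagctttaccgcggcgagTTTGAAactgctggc
Cdc20, chr4:118437344-118437463, - strand: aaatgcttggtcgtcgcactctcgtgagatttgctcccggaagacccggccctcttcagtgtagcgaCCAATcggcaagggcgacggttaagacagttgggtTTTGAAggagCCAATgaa
Mad2l1, chr6:66535101-66535220, + strand: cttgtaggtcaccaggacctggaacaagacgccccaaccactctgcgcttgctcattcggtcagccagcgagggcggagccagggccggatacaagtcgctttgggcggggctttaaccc

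The Prc1, Top2a, Ube2c, Cdk1 and Cdc20 stretches carried both motifs. Where a gene had more than 1 window, as Prc1 did, the stretch with the most matches was printed. In the other Prc1 window TTTGAA began at base -5 and ran across the start. The stretches of Ccnf, with both motifs, and Kif2c, with TTTGAA alone, were drawn up as well and are not printed. The Mad2l1 window held neither, as did those of Birc5, Ncaph, Nuf2 and Nusap1, which rose. Of the genes with small rises, Cdca3 (0.17) and Ttk (0.27) held both motifs in their windows and Bub1 (0.21) only CCAAT. The median log2 fold change with hymeglusin was 0.54 in the 31 genes with TTTGAA and 0.52 in the 11 without it. A match is a description of letters and not of a bound site.

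MLTC-1 with DMSO was then set against the primary cells, a comparison in which the tumour line, its culture and the source animals cannot be told apart. It shares its DMSO libraries with the hymeglusin comparison and its primary libraries with the age comparison. Against 2-month cells, 47 of 49 mitosis genes were higher in MLTC-1 and 0 lower, against 34.4% of all 16092 genes tested higher, 48.5% lower and 82.8% either way. The median log2 difference was 2.65, or 6.29-fold, against -0.27 over all genes. Against 24-month cells 47 were higher and 1 lower, against 30.8% and 45.6% of all 16245 genes and 76.3% either way, with a median of 3.12, or 8.71-fold, against -0.41 over all genes. Every MLTC-1 library lay above both 2-month libraries in 48 genes and below in 0, against 38.7% and 50.5% of all genes. It lay above both 24-month libraries in 48 and below in 1, against 40.4% and 46.3%.

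The genes furthest from the 2-month cells were Mki67, Cenpa, Ccna2 and Racgap1. Mki67 stood at 616, 656 and 622 CPM with DMSO, at 10.8 and 16.8 CPM at 2 months, 261 and 425 reads, and at 0.132 and 2.19 CPM at 24 months, 2 and 53 reads. Its log2 difference was 5.46 (SE 0.174, adjusted p = 5.01e-08) against 2-month cells and 8.75 (SE 0.883, adjusted p = 0.000372) against 24-month cells, the second of which rests on few reads. Cenpa, the histone H3 variant that marks centromeres, stood at 66.7, 59.9 and 61.6 CPM with DMSO, at 1.66 and 1.43 CPM at 2 months and at 1.59 and 1.37 CPM at 24 months (log2 5.30, SE 0.131, and 5.21, SE 0.210). Ccna2, the cyclin of S phase and G2, stood at 3.19 and 3.17 CPM at 2 months and at 0.662 and 2.23 CPM at 24 months (log2 5.25, SE 0.107, and 6.15, SE 0.501). Racgap1 stood at 416, 430.5 and 437 CPM with DMSO and at 9.68 to 15.6 CPM in the 4 primary libraries (log2 5.03, SE 0.181, and 5.11, SE 0.206). Against 24-month cells Cdc25b, at 5.48, lay above Cenpa and Racgap1. For Mki67, Cenpa, Ccna2 and Racgap1 no primary library came near an MLTC-1 library.

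By role, the cyclin and Cdc25 group had a median difference of 3.68 against 2-month cells and 3.79 against 24-month cells, with 7 of 7 higher in each. Its smallest was Ccnb2, at 21.7 and 32.0 CPM at 2 months and at 47.1 and 43.6 CPM at 24 months (log2 1.96, SE 0.154, and 1.05, SE 0.150, adjusted p = 0.00123). The 3 entry kinases were nearest to the primary cells of all roles, with medians of 1.29 and 1.33. Plk1 was the highest of them (2.36, SE 0.175, and 1.81, SE 0.159) and Nek2 the lowest against 2-month cells (1.17, SE 0.184, adjusted p = 0.000487). Aurka stood at 27.4 and 46.0 CPM at 2 months and at 54.6 and 54.3 CPM at 24 months. It was the lowest of the kinases against 24-month cells (0.57, SE 0.149, adjusted p = 0.0138), a call lost with upper quartile scaling, with the filter at 10 CPM and without any 1 of the 3 DMSO libraries.

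All 5 checkpoint genes were higher in MLTC-1 against both ages, from Mad2l1 (2.82, SE 0.123, and 3.24, SE 0.238) down to Bub3, which stood at 67.9 and 69.7 CPM at 2 months and at 68.3 and 70.5 CPM at 24 months (1.04, SE 0.062, and 0.87, SE 0.144, adjusted p = 0.00212). On this scale the 4 primary libraries held Bub3 at nearly 1 level. Over the 16 fits of 24 against 2 months its log2 difference ran from -0.11 to 0.62. The 4 proteolysis genes were all higher, with Ube2c at the top against 2-month cells (4.30, SE 0.197) and Espl1 against 24-month cells (3.78, SE 0.309), and with Espl1 (1.92, SE 0.151) and Cdca3 (1.20, SE 0.271, adjusted p = 0.00799) at the bottom. The 4 passenger complex genes ranged from Aurkb, the kinase of the complex (3.37, SE 0.126, and 4.10, SE 0.192), to Incenp at 2 months (1.82, SE 0.092) and Birc5 at 24 months (1.79, SE 0.195).

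Kinetochore genes were higher in 5 of 5 cases, with Nuf2, which pairs with Ndc80 to hold microtubules, the nearest to primary cells (1.59, SE 0.211, and 1.41, SE 0.215). The midzone genes were higher in 6 of 6, with Kif20a, the motor that carries Plk1 and the passenger complex to the midzone, the lowest against 2-month cells (2.32, SE 0.162) and Prc1 against 24-month cells (2.72, SE 0.288). Of the spindle motors and microtubule binding proteins 7 of 8 were higher, led by Hmmr (3.84, SE 0.137, and 5.13, SE 0.381), and of the chromosome structure genes 6 of 7.

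Kif2c and Smc4 were the exceptions. Kif2c, also called MCAK, stood at 65.9, 70.4 and 68.5 CPM in MLTC-1 with DMSO, at 43.5 and 63.4 CPM at 2 months and at 84.4 and 75.4 CPM at 24 months. The difference from 2-month cells was 0.31 (SE 0.149, adjusted p = 0.0878), and it passed with the offset for length (0.67, adjusted p = 0.0012), with that for length and GC (0.63, adjusted p = 0.0017) and without 2-month replicate 2 (0.62, adjusted p = 3.6e-06). Against 24-month cells Kif2c was the only mitosis gene lower in MLTC-1 (-0.43, SE 0.149, adjusted p = 0.0378). That call was lost without any 1 of the DMSO libraries, with total counts and without the count filter, and an offset for transcript length turned the value to 0.10. Smc4 stood at 132, 131 and 115 CPM in MLTC-1, at 99.9 and 134 CPM at 2 months, and at 11.5 and 58.7 CPM at 24 months. In the main fit Smc4 did not differ detectably from 2-month cells (0.06, SE 0.129, adjusted p = 0.66). It was higher with the offset for length and GC (0.47, adjusted p = 0.0036). Without 2-month replicate 1 the value was -0.14, and without 2-month replicate 2 it was 0.31. Against 24-month cells the value was 1.64 (SE 0.643, adjusted p = 0.058), with the 24-month libraries far apart. That value passed in 8 of 17 fits, DESeq2 (adjusted p = 0.0128) and limma-voom (adjusted p = 0.0291) among them, and was 0.92 without 24-month replicate 1 and 3.24 without replicate 2. Smc2, its condensin partner, was higher in MLTC-1 by 2.78 (SE 0.076) and 4.60 (SE 0.745, adjusted p = 0.00218).

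**Figure D3:**
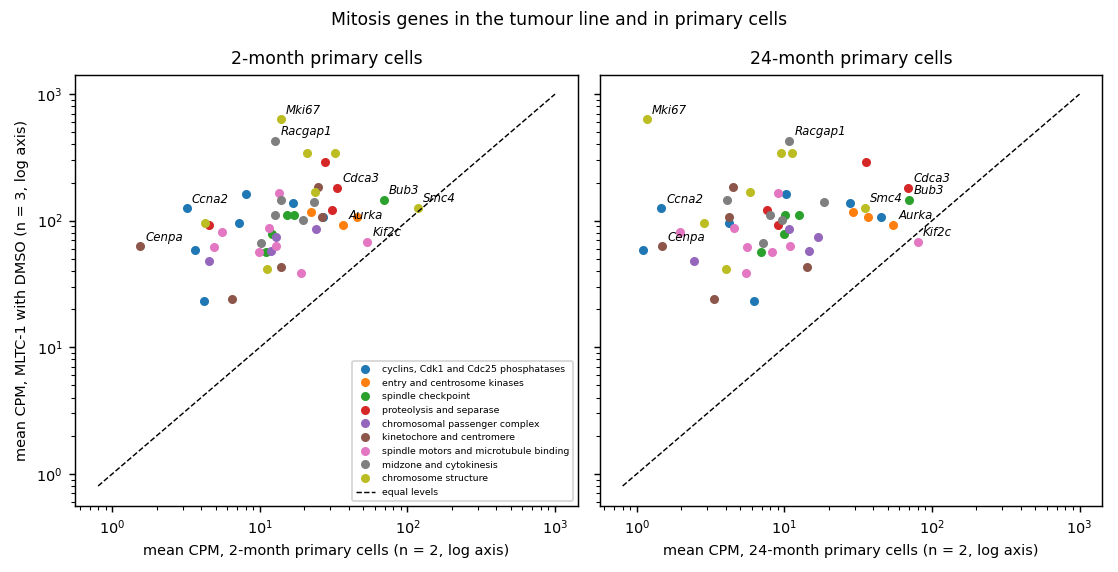
Mean CPM of each mitosis gene in MLTC-1 cells with DMSO (vertical, log axis, n = 3) against its mean in primary Leydig cells of 2 months (left) and 24 months (right, horizontal log axes, n = 2 each), coloured by role. Nearly all points lie above the dashed line of equal levels, Mki67 (mean 631 CPM with DMSO) the furthest, while Kif2c and, at 2 months, Smc4 lie on or near it.

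The replication genes were higher in MLTC-1 in 30 of 30 cases against 2-month cells (median log2 3.11) and in 28 of 30 against 24-month cells (median 3.64), led by the helicase subunits Mcm3 (5.86) and Mcm6 (4.90) at 2 months and by Cdt1 (6.57) and Tk1 (5.45) at 24 months. Of 27 other kinetochore subunits 23 were higher and 0 lower against 2-month cells, and 20 higher and 3 lower against 24-month cells, Cenpn (-0.73) and Cenpw (-0.85) among the lower. Of 15 anaphase promoting complex subunits 10 were higher and 5 lower against 2-month cells, and 6 higher and 5 lower against 24-month cells; Ube2s, an E2 enzyme of the complex, was higher in both (2.82 and 1.69) and Anapc13 lower in both (-1.17 and -2.57). Of 14 cohesin genes 11 were higher and 2 lower, and 12 higher and 1 lower. Pttg1, securin, which inhibits separase, was lower in MLTC-1 in both (-1.37, SE 0.102, and -2.87, SE 0.201), while the cohesin protector Sgo1 was higher (4.06 and 5.29).

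Among 15 transcription genes, 11 were higher and 1 lower against 2-month cells and 10 and 1 against 24-month cells. Mybl2, the B-Myb subunit of the mitotic activator, was higher by 3.58 and 3.70, and Rbl2, the pocket protein of the DREAM repressor, was lower against 2-month cells (-0.97). Of the 5 Cdk1 inhibitors and anaphase promoting complex regulators, 4 were higher against 2-month cells, Fbxo5 (3.76) first. Against 24-month cells 3 were higher and 1 lower, the inhibitor Cdkn1a (-2.93, SE 0.163). Of 7 Greatwall pathway genes 4 were higher and 1 lower, and 3 higher and 2 lower, with Mastl at 4.37 and 5.28. All 3 condensin II subunits were higher against both ages. For all these lists, the shares over all genes were 34.4% higher and 48.5% lower against 2-month cells. Against 24-month cells they were 30.8% and 45.6%.

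Germ cell markers moved with this comparison in the opposite direction. Of 22 meiosis markers, 20 were lower in MLTC-1 than in 2-month cells and 1 higher, Syce2 (0.37), and 19 of 20 tested were lower than in 24-month cells. All 15 spermatid markers were lower in both. Macrophage markers summed to 13.8 and 15.9 CPM at 2 months, 55.9 and 45.9 CPM at 24 months and at most 1.10 CPM with DMSO. Of 10 spermatogonia markers, those tested, 5 and 6, were all lower. How much of the mitosis gene level in the primary libraries came from these cells was not tested.

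The 2-month libraries differed from each other in the mitosis genes and in the meiosis markers. The matching shares over all genes were not computed, so a difference particular to these genes is not shown. In replicate 2, 45 of 49 mitosis genes were higher than in replicate 1, with a median ratio of 1.47 and a largest ratio of 2.02 for Cenpe. All 22 meiosis markers were also higher in replicate 2, with a median ratio of 1.56. In replicates 1 and 2 the replication genes summed to 387 and 435 CPM, and the Leydig markers to 22289 and 20149 CPM. Between the 24-month libraries 30 of 49 mitosis genes were higher in replicate 2 (median ratio 1.16), from 0.569 for Cdca3 to 16.6 for Mki67, as were 14 of 22 meiosis markers (median ratio 1.26). The DMSO and hymeglusin libraries agreed more closely, with median ratios between replicates of 0.96 to 1.03.

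**Figure D4:**
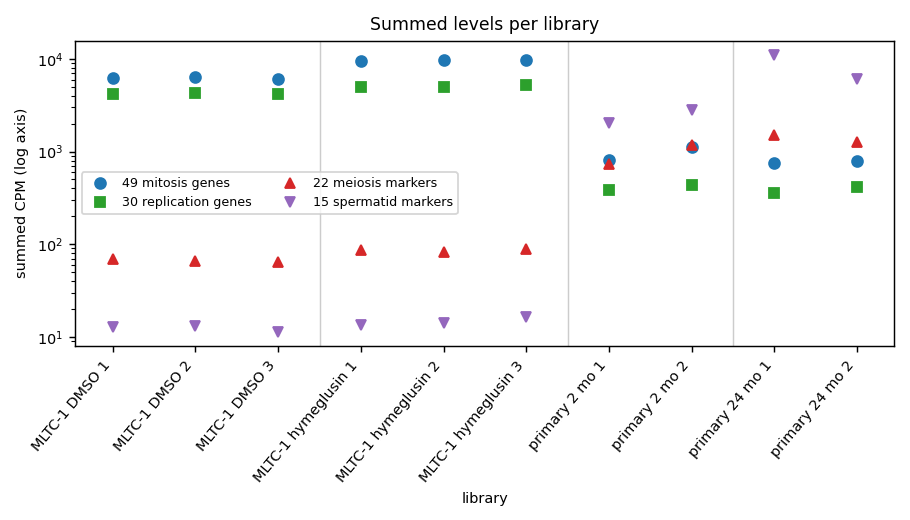
Summed CPM (log axis) of the 49 mitosis genes, 30 replication genes, 22 meiosis markers and 15 spermatid markers in each of the 10 libraries. The mitosis and replication sums are highest in the 6 MLTC-1 libraries, and the meiosis and spermatid sums are highest in the 4 primary libraries, where the meiosis sum (737 to 1513 CPM) is of the size of the mitosis sum (758 to 1129 CPM).

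The last comparison asked how Leydig cells of 24-month mice differ from those of 2-month mice. Of the 49 mitosis genes, 8 were lower and 1 higher at 24 months, against 15.1% of all 16381 genes tested lower and 13.5% higher. The share of mitosis genes called in either direction, 9 of 49, was not above the 28.6% of all genes called. The 8 lower genes were Mki67, Cenpe, Cenpf, Espl1, Kif20b, Top2a, Anln and Incenp, and the 1 higher gene was Cdca3. The median log2 fold change was -0.47, against -0.01 over all genes. In 24 genes both 24-month libraries lay below both 2-month libraries, as in 40.6% of all genes, and in 9 both lay above, as in 33.7%.

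Mki67 fell from 10.8 and 16.8 to 0.132 and 2.19 CPM (log2 -3.40, SE 0.803, adjusted p = 0.0181). Cenpe fell from 17.3 and 35.02 to 2.38 and 6.001 CPM (log2 -2.53, SE 0.516, adjusted p = 0.0124), and Cenpf, a large kinetochore protein, from 17.9 and 31.9 to 3.05 and 5.92 CPM (log2 -2.37, SE 0.454, adjusted p = 0.0105). Espl1 fell from 25.6 and 36.1 to 5.43 and 9.77 CPM (log2 -1.93, SE 0.397, adjusted p = 0.0127). All 4 genes had their 24-month libraries well below the 2-month ones, with replicate 1 the lower of the pair at each age.

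Kif20b, a motor of late cytokinesis, fell from 17.3 and 20.7 to 4.77 and 6.21 CPM (log2 -1.70, SE 0.371, adjusted p = 0.0140). Top2a fell from 24.6 and 40.2 to 8.14 and 10.7 CPM (-1.69, SE 0.370, adjusted p = 0.0142), Anln, the furrow scaffold anillin, from 12.6 and 15.1 to 2.05 and 6.04 CPM (-1.67, SE 0.507, adjusted p = 0.0372), and Incenp from 22.4 and 25.4 to 9.93 and 11.6 CPM (-1.06, SE 0.336, adjusted p = 0.0418). Cdca3 stood at 27.6 and 39.0 CPM at 2 months and at 88.1 and 50.2 CPM at 24 months (1.14, SE 0.379, adjusted p = 0.0485), just past the threshold. Cenpe passed in all 16 fits of this comparison and Mki67 in 15, at adjusted p up to 0.0495 and 0.0637. Over these fits the Mki67 value ran from -6.61 without 24-month replicate 2 to -2.02 with the offset for length and GC. Cdca3 and Anln passed in 9 each, Incenp in 10, Kif20b in 12, and Espl1, Cenpf and Top2a in 13.

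The other genes did not pass. In data simulated for this comparison, 5.05% of differences of log2 1 were called. Not passing therefore does not show equal levels. The cyclin group ran from Ccnb2 (0.85, SE 0.330, adjusted p = 0.0799) to Cdc25b (-1.63, SE 0.572, adjusted p = 0.058), with Cdk1 at 6.92 and 9.07 CPM and 10.8 and 9.68 CPM (0.44, adjusted p = 0.387). Aurka was the highest kinase (0.66, SE 0.342, adjusted p = 0.168) and Nek2 the lowest (-0.23, SE 0.350, adjusted p = 0.645). The checkpoint genes lay between Ttk (-0.55, SE 0.444, adjusted p = 0.361) and Bub3 (0.09, SE 0.309, adjusted p = 0.839). Elsewhere the upper ends were Cdca8 (0.48, adjusted p = 0.344), Kif2c (0.67, adjusted p = 0.149), Nuf2 (0.12, adjusted p = 0.84), Racgap1 (-0.14, adjusted p = 0.806) and Ncaph (-0.49, adjusted p = 0.454).

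The direction of the age difference went with the length of the longest annotated transcript, which need not be the one expressed. Among the 16 genes with the shortest transcripts, 1531 to 3227 bases, the median log2 fold change was 0.48, with 1 higher and 0 lower. Among the 17 of 3326 to 4086 bases it was -0.25, with 1 lower, and among the 16 of 4133 to 11130 bases it was -1.66, with 7 lower. Across the 49 genes Spearman's rho between length and log2 fold change was -0.72, a description of genes that share the same 4 libraries. The corresponding rho was -0.02 with hymeglusin, 0.08 for MLTC-1 against 2-month cells and 0.49 against 24-month cells, where the offset for length, described next, made it 0.09. With an offset for the trend of counts on length in each library, taken over all genes, 2 of the 49 were lower, Mki67 and Cenpe, and 0 higher, the median was -0.13 and rho -0.34. With an offset for length and GC content 4 were lower and 1 higher, with a median of -0.09, and of the 9 calls Mki67, Cenpe and Incenp remained.

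**Figure D5:**
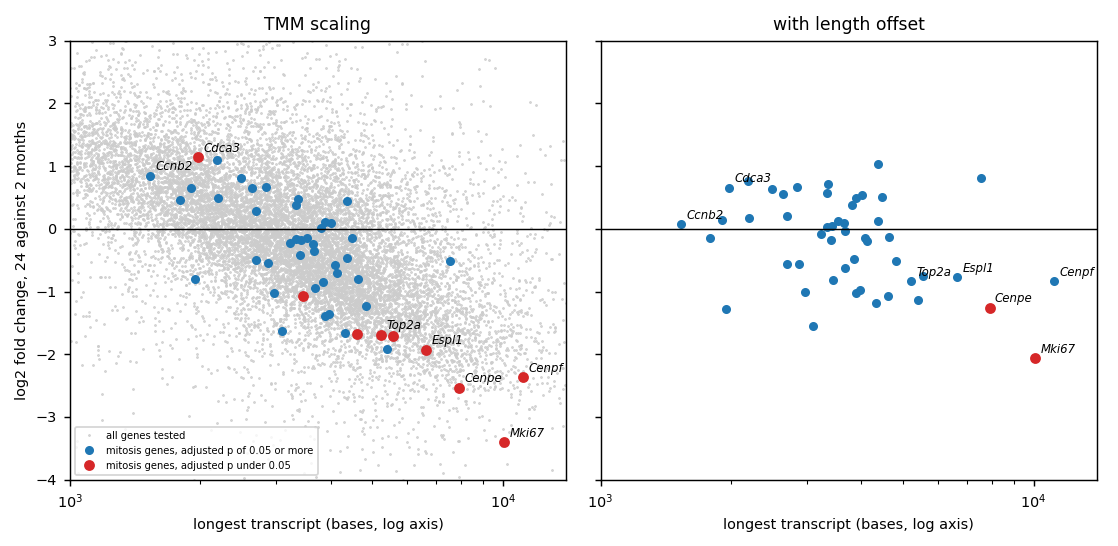
Log2 fold change at 24 against 2 months of each mitosis gene against the length of its longest transcript (log axis), with TMM scaling (left, over all genes tested in grey) and with an offset for length (right), red where the adjusted p was under 0.05. On the left the genes fall with length as the grey cloud does, from Cdca3 at 1.14 to Mki67 at -3.40, and on the right 2 genes, Mki67 and Cenpe, are red.

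The result also depended on single libraries. Leaving out 1 of the 4 in turn gave 3 to 20 lower and 0 to 6 higher mitosis genes: 5 and 0 without 2-month replicate 1, 3 and 0 without 2-month replicate 2, 11 and 0 without 24-month replicate 1, and 20 and 6 without 24-month replicate 2. Smc2 and Smc4 show the spread at 24 months. Smc2 stood at 23.1 and 24.4 CPM at 2 months and at 1.66 and 10.1 CPM at 24 months (-1.92, SE 0.646, adjusted p = 0.0508). Smc4 stood at 99.9 and 134 CPM, then at 11.5 and 58.7 CPM (-1.66, SE 0.611, adjusted p = 0.0673). Neither passed in the main fit, but both passed in some alternatives. Over the 16 fits Smc2 ran from -3.80 to -1.13 and Smc4 from -3.31 to -0.98. The split into called and other genes is thus not firm.

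Other genes of the cycle were mixed with age, against 13.5% of all genes tested higher and 15.1% lower. The counts and values here and for the cell type markers that follow were taken without the offset for length. Whether they go with transcript length was not tested. Of 30 replication genes, 0 were higher and 1 lower, Pola1, of the primase complex (-1.61, SE 0.489, adjusted p = 0.0367). Of 27 other kinetochore subunits, 4 were higher, Cenpw (1.42) and Pmf1 (1.505) among them, and 1 lower, Knl1 (-1.93). Of 14 cohesin genes 7 were lower, Pds5b (-2.13) and Stag1 (-1.83) among them, and 1 higher, Pttg1 (1.42). Of 3 condensin II subunits 2 were lower, Ncapg2 (-3.84) and Ncapd3 (-1.48). Of 15 anaphase promoting complex subunits 4 were higher, Anapc11 (1.77) and Anapc13 (1.31) among them, and 2 lower, Anapc1 (-1.93) and Cdc23 (-1.58). Of 15 transcription genes 1 was higher, Lin37 (1.29), and 1 lower, Rbl1 (-1.56), and of 7 Greatwall genes 0 passed (1 at an unadjusted p under 0.05). Of the 5 Cdk1 inhibitors and anaphase promoting complex regulators, Cdkn1a, p21, was the 1 that rose (2.71, SE 0.333, adjusted p = 0.0027).

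Markers of some other cell types also differed with age, against 13.5% of all genes tested higher and 15.1% lower. Spermatid markers were higher in 10 of 15 cases and macrophage markers in 4 of 10, C1qa (2.81) and Lyz2 (2.79) among them. Meiosis markers were higher in 3 of 22, Syce3 (2.38) and Syce2 (1.58) among them, which is near the share of all genes. Of the 22, 8 had values below 0. No spermatogonia, Sertoli, lymphocyte or endothelial marker passed. Neutrophil markers summed to 0 and 0.0792 CPM at 2 months and to 9.4 and 93.5 CPM at 24 months. Of the 6 stromal and progenitor markers 2 were higher and 2 lower. Their part in the mitosis gene levels was not tested.

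Counts of 6 of the 49 genes may have gained or lost reads where a neighbour on the opposite strand shares their exons. The strand setting of the counting is not given in the sources used here. These genes share at least 10% of their exon bases with another gene: Kif20a with Cdc23 (29.3%), Ube2c with Tnnc2 (22.8%), Ncapg with Lcorl, Cdc25c with Gm3550, Ccna2 with Exosc9 and Prc1 with Rccd1. Tnnc2 had only 61 counts over all 10 libraries, and Gm3550 was not in the counts table.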

How the data were processed

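The deposited table holds raw counts per gene symbol, not normalized by the authors. Per the submitters' processing notes, reads were handled with HISAT2 2.2.1, featureCounts 2.0.6, fastp 0.23.4 and FastQC 0.12.1 on the mm10 build. For the counting, no strand setting or annotation is given in the sources used here. Per the labels' protocols, 1.3 µg of total RNA went into each NEBNext Ultra library. The 49 genes, their roles and 20 other lists were chosen with earlier results of these data known.

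Each of the 4 comparisons was fitted on its own libraries with edgeR 4.0.16 in R 4.3.3: filterByExpr (minimum count 10, minimum total 15), TMM scaling and the quasi-likelihood test, called at a Benjamini-Hochberg adjusted p under 0.05 over all genes tested. All 49 genes passed the filter in each. SE is the log2 fold change divided by the square root of F. CPM values were scaled by TMM over all 10 libraries. The script was tested on simulated data with differences of log2 1 and 2. It called 96% and 100% of them with hymeglusin and 5.05% and 66.3% at 24 against 2 months. For MLTC-1 it called 78.8% and 89% against 2-month cells and 13.3% and 69.4% against 24-month cells. False calls were 7.18% to 10.3% of all calls, above the 5% of the threshold. Named genes were, in each comparison, the highest and lowest of each of 9 roles, those called against most calls, and up to 2 per direction of each other list; Cdk1, Ccnb1, Plk1, Cdc20, Bub1, Mki67, Racgap1, Smc2, Smc4 and others were added after their values were seen. Transcript lengths and GC content came from GENCODE M21 (GRCm38), for 97.7% to 98.1% of the genes tested and all 49. They are those of the longest annotated transcript, which need not be the one expressed. That of Mad2l1, 7557 bases, is longer than the whole gene in RefSeq. The levels per kilobase and the length groups carry this limit. Alternatives were other scalings (RLE, upper quartile, total counts), DESeq2 1.42.0, limma-voom (limma 3.58.1), other filters, a replicate block, a joint fit of all 10 libraries, offsets for length and GC, and leaving out each library. A count of 0 in a library allows up to 3 counts, 0.0873 to 0.199 CPM, for counting error only. Figures were drawn with matplotlib 3.10.9.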

Additional observations from a re-analysis of the deposited data

How the results depend on the processing

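With 1 fit of all 10 libraries the hymeglusin comparison kept 27 of its 48 higher calls (median log2 0.64), and with total counts the median was 0.66 while that of all genes moved from 0.01 to 0.11 and the share of calls that were higher from 49.4% to 70.0%. Leaving out 1 library gave 47 to 49 higher, 0 lower and a median of 0.55 to 0.58, and the replicate block gave 48.

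At 24 against 2 months, members higher and lower numbered 0 and 5 with total counts, 1 and 14 without a count filter, 9 and 19 in 1 fit of all 10 libraries, 0 and 2 with the length offset (median -0.13), 1 and 4 with the length and GC offset (median -0.092), and 0 and 10 with the replicate block. The filter at 10 CPM, which 32 of the 49 passed, gave a median of -0.19, and leaving out 1 library gave 0 to 6 higher, 3 to 20 lower and medians of -0.69 to -0.18. The share of all calls that were higher was 47.3%, and 59.6% with upper quartile scaling, 29.0% with total counts, 61.4% with the offset for length and 57.4% with that for length and GC. Among the members named in that comparison, values that changed sign were those of Racgap1 (0.040 with upper quartile scaling, 0.50 and 0.58 with the length and the joint offset, -0.42 to 0.17 leaving out 1 library), Nuf2 (-0.083 with total counts, -0.23 to 0.47 leaving out 1 library), Bub3 (-0.11 with total counts) and Nek2 (-0.51 to 0.092 leaving out 1 library). Those of Mad2l1, Cdc20, Bub1, Cenpa, Kif18b, Tpx2, Nusap1, Gtse1 and Prc1 also crossed 0 over the alternatives, with Mad2l1 from -0.83 to 0.92.

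For MLTC-1 against 2-month cells the median was 2.97 with the length and GC offset and 2.36 to 2.89 leaving out 1 library, with 47 to 49 higher and 0 lower. Smc4 changed sign with upper quartile scaling (-0.072), the 10 CPM filter (-0.073) and in the range of -0.14 to 0.31 leaving out 1 library. Against 24-month cells the median was 2.90 with upper quartile scaling, 3.36 with total counts, 2.88 with the 10 CPM filter and 3.25 with length and GC. The lower count of 1, Kif2c, was 0 with total counts, no filter, the replicate block and both offsets, which turned Kif2c to 0.10 and 0.12, and 0 to 1 leaving out 1 library (46 to 48 higher, median 3.07 to 3.24). With the replicate block Aurka lost its call against 24-month cells (0.61, adjusted p = 0.17), Smc4 gained one there (2.12, adjusted p = 5.7e-06), and Kif2c gained one against 2-month cells (0.32, adjusted p = 0.022). With the length offset the share of all calls that were higher rose from 41.5% to 52.0% at 2 months and from 40.3% to 51.6% at 24 months. The cause of these changes was not tested. Among all genes, calls at 24 against 2 months numbered 2214 higher and 2471 lower, and 239 to 4309 and 602 to 5628 over the alternatives; with hymeglusin 3069 and 3149 became 645 and 289 in 1 fit of all 10 libraries. Samples with the same replicate number had correlations of -0.0905 to 0.0318 after centring within each group. With 2 or 3 libraries per group the centring partly fixes these values. They cannot show whether the numbers pair samples. With 2 libraries per age, leaving 1 out rests the spread on a single pair.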
